A study of Homo sapiens with 10 samples.

Results

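The genes described here are the nuclear genes of oxidative phosphorylation, measured by sequencing of poly(A) RNA in 10 libraries of D425 and HD-MB03, a pair of cell lines grown from Group 3 medulloblastoma, an aggressive childhood tumour of the cerebellum. They were chosen by gene symbol and gene type: protein-coding rows with symbols that start with NDUFA, NDUFB, NDUFC, NDUFS, NDUFV, UQCR, COX4I, COX5, COX6, COX7, COX8 or ATP5, with SDHA, SDHB, SDHC, SDHD and CYC1. The rule took 99 of the 57820 gene identifiers in the files, or 99 of the 19263 that are protein-coding. A further 177 pseudogenes and 6 other non-coding genes with such symbols were dropped. The members fell into 7 core subunits, 31 accessory subunits and 8 assembly factors of complex I, 4 subunits of complex II, 10 of complex III, 19 of complex IV and 20 of complex V.

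Short hairpin RNA was used to lower CRX, a homeobox transcription factor known from photoreceptors, and the question was which genes respond. There were 2 parental, 1 empty-vector and 3 shCRX libraries of D425, and 1 parental, 1 empty-vector and 2 shCRX libraries of HD-MB03. The labels give doxycycline, the inducer of the Tet-pLKO-puro vector, at 4 µg/ml for 72 h, and shCRX cells were polyclonal populations that carried either of a pair of hairpins, with no statement of which hairpin each library holds. Controls of a line were its parental and vector libraries, so that 3 libraries faced 3 in D425 and 2 faced 2 in HD-MB03. Nothing in the labels states that replicates are separate cultures, and the p-values therefore cover only the spread among these libraries, which may be technical.

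Oxidative phosphorylation is carried out by protein complexes of the inner mitochondrial membrane. Complexes I and II take electrons from NADH and succinate, complexes III and IV pass them by way of cytochrome c to oxygen, and complex V, the ATP synthase, uses the proton gradient that the chain builds. Most subunits are encoded in the nucleus and a small core in the mitochondrial genome, so that both genomes have to supply their parts in balance.

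Between 1.96 and 18.06 M reads were counted in genes per library. The HD-MB03 parental and vector libraries were the shallowest, and 30.9% and 26.4% of their reads did not align, against 4.54% to 7.99% in the other 8 libraries. CRX stood at 47.5, 29.7 and 64.9 CPM (counts scaled to a common effective library size) in D425 controls and at 20.3, 20.9 and 25.3 in the shCRX libraries. In HD-MB03 it stood at 12.5 and 12.3 CPM in controls and at 27.7 and 23.5 in the libraries labelled shCRX, which goes against the label, so directions in HD-MB03 are those between labelled libraries. Library numbers fell into 2 sets, a low-numbered set (D425 shCRX and HD-MB03 controls) and a high-numbered set (D425 controls and HD-MB03 shCRX), so within a line the set and the arm cannot be told apart. Of 7 Group 3 markers, MYC, OTX2, IMPG2, GABRA5 and EYS were present in all libraries, EOMES was at 0 in 9 of 10 and NPR3 in 7 of 10. The marker sum was 5464 to 6351 CPM in D425 controls and 2933 to 4581 in D425 shCRX, and 6839 to 8466 in HD-MB03 controls and 7152 to 7392 in the libraries labelled shCRX. Of the neuronal markers STMN2 and TUBB3 stayed at or below 1.02 CPM, while SYP stood at 64.1 to 271 CPM, and the endothelial markers CDH5 and KDR together at or below 1.64. The 37 mitochondrial genes of the files held 0 counts, so only the nuclear side of the chain could be read.

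Messages of oxidative phosphorylation were abundant in both lines. The 99 members summed to 11570, 9935 and 9892 CPM in D425 controls and to 8209, 11070 and 11260 in D425 shCRX. The sum in HD-MB03 was 11140 and 10110 CPM for the controls and 9051 and 8990 for the libraries labelled shCRX. D425 arms overlapped in this sum, while both HD-MB03 libraries labelled shCRX lay below both controls. Complex V had the largest sum, 3386 to 5088 CPM, and complex II the smallest among the complexes themselves, 226 to 354 CPM.

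Levels per kilobase of transcript, in CPM per kb averaged over the 10 libraries, ranked complex IV (median 138 over 14 tested subunits) and complex V (113 over 18) above complex III (88.2 over 10) and complex II (62.3 over 4). The complex I core had a median of 85.1 CPM per kb, its accessory subunits 58.7 and its assembly factors 15.2. ATP5F1A and ATP5F1B, the alpha and beta subunits that form the catalytic head of ATP synthase, were the most abundant members at 622 and 556 CPM per kb. UQCRH, the hinge protein of complex III, followed at 495, but its near copy UQCRHL (16.0 CPM per kb) can take reads from it and give reads to it. At the low end of the complexes stood COX6B2 (0.417 CPM per kb), NDUFA7 (1.29), NDUFV2 (4.00), NDUFAF5 (5.4) and SDHD (43.0). By the reference annotation, 30.9% of the exonic bases of COX6B2, 33.5% of those of NDUFA7 and 28.4% of those of NDUFV2 overlap another gene. Reads ambiguous between genes were not counted, so these low levels are uncertain. The highest of their groups were NDUFS8 (129), NDUFS5 (239), NDUFAF8 (51.5), SDHC (133) and COX4I1 (342).

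Isoforms of other tissues were nearly silent. COX4I2, the lung isoform of subunit 4, had 0 counts in all 10 libraries, where COX4I1 stood at 219 to 344 CPM. The muscle isoforms COX6A2 and COX7A1 and the testis isoforms COX7B2 and COX8C stayed at or below 0.52 CPM in every library. Their widely expressed counterparts COX6A1, COX7A2, COX7B and COX8A had means of at least 28.9 CPM. Together with the read-through genes ATP5MF-PTCD1 and NDUFC2-KCTD14 and with ATP5MGL, these were the 8 members that failed the filter on low counts, which left 91 tested members. COX6B2 and NDUFA7 passed the filter with a library at 0 counts.

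Promoter sequence is shown for 6 members. They are COX5B (called in D425), NDUFS7, ATP5PD, COX5A and ATP5PO (called in HD-MB03) and SDHD (the largest excess in D425 over HD-MB03). CYC1, also called in HD-MB03, is not shown. Each stretch is the last 150 bases before the annotated start in RefSeq, build GRCh38.p14, 5′ to 3′ on the strand of the gene. Capitals mark GCATGCGC, the core of the motif of nuclear respiratory factor 1 (NRF1), and CCGGAAGT, the motif of ETS factors such as GABPA, on either strand. Both factors are known activators of respiratory chain genes. In SDHD the NRF1 motif occurs on both strands, in overlap, from bases -110 to -101 before the start. The stretches of COX5A and ATP5PO hold neither motif.
COX5B, chr2:97645912-97646061, plus strand: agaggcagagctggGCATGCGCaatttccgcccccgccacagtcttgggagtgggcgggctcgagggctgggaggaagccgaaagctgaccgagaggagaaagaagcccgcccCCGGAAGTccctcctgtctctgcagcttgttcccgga
SDHD, chr11:112086723-112086872, plus strand: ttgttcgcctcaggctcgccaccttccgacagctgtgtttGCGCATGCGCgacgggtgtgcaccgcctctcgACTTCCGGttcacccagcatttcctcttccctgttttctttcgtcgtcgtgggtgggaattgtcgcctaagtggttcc
NDUFS7, chr19:1383757-1383906, plus strand: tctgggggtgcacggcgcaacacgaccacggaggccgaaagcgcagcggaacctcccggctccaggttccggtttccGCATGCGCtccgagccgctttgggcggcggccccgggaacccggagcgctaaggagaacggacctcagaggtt
ATP5PD, chr17:75046970-75047119, minus strand: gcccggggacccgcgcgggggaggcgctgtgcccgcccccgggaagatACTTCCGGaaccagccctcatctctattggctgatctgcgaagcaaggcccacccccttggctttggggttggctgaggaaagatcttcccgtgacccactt
COX5A, chr15:74938074-74938223, minus strand: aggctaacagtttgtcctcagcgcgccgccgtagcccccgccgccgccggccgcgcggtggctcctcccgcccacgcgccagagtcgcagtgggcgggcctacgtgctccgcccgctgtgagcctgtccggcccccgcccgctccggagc
ATP5PO, chr21:33915805-33915954, minus strand: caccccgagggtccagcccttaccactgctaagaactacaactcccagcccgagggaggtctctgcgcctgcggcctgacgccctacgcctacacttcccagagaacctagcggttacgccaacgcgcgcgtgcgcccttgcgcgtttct

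Windows of 300 bases (250 before to 50 after a start) were at hand for 78 of the 99 members, 96 windows in all. GCATGCGC, searched on both strands, occurred in 17 of them (17.7%), belonging to 16 members, against 3.05% of all 35116 windows in the table. CCGGAAGT occurred in 12.5% of member windows and 4.14% of all windows, and AAGATGGC, a motif of YY1, in 15.6% and 2.89%. CTAATCC, the motif that CRX and OTX2 bind, occurred in 3.12% of member windows (ATP5MJ, NDUFA7 and NDUFAF3) and in 1.76% of all windows. These counts describe letters in a window and not bound sites. None of the 3 members with CTAATCC passed the test in either shCRX comparison. Their log2 fold changes in D425 were -0.29 for ATP5MJ, -0.72 for NDUFA7 and 0.52 for NDUFAF3.

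In D425, the libraries labelled shCRX differed little from controls in these genes. COX5B, a zinc-binding nuclear subunit of cytochrome c oxidase, was the single member that passed edgeR's quasi-likelihood test at a Benjamini-Hochberg adjusted p under 0.05 over all 16006 genes tested, or 1 of 91 members where the background was 2.97% of all genes and 1.61% in this direction. COX5B stood at 74.6, 70.8 and 77.0 CPM in controls and at 112, 136.1 and 147 in shCRX libraries. All 3 shCRX libraries lay above all controls, a log2 fold change of 0.83 ± 0.17 (SE, n = 3 against 3, edgeR adjusted p = 0.0209). In such bulk libraries, more cells with a message and more of it per cell cannot be told apart. The median log2 change of the 91 tested members was -0.02, against 0.02 over all genes tested, and 43 of 91 were positive. Of the tested members, 73 had a 95% interval wholly within 1 log2 unit of no change, and the median standard error was 0.216.

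The other subunits named in D425 did not pass. ATP5IF1, the inhibitor of ATP synthase hydrolysis, had 35.0, 44.3 and 37.6 CPM in controls and 45.3, 69.3 and 69.1 in shCRX, without overlap but with an edgeR adjusted p of 0.130 for a log2 difference of 0.65. NDUFS7, the core subunit that hands electrons to ubiquinone, had a log2 difference of 0.61 (edgeR adjusted p = 0.215). The groups did not overlap for 6 members that were higher (6.59%, background 11.5% of all genes) and 2 that were lower (2.20%, background 11.5%). The higher ones were COX6B2, COX5B, ATP5IF1, NDUFS7, NDUFAF3 and NDUFC1, and the lower ones NDUFA7 and COX6A1. COX6B2 and NDUFA7 rested on few counts in libraries of unlike depth. COX6B2 had 2, 0 and 2 counts in controls and 3, 3 and 2 in shCRX, and NDUFA7 had 19, 12 and 12 against 6, 3 and 3. Smaller differences were found for subunits from each complex. ATP5F1A had a log2 difference of -0.13 with a 95% interval from -0.55 to 0.29, and ATP5F1B -0.25 (from -0.63 to 0.12). NDUFV1 had 0.11 (from -0.27 to 0.50) and SDHA -0.24 (from -0.72 to 0.24). UQCRFS1 had 0.27 (from -0.14 to 0.68) and COX4I1 -0.21 (from -0.58 to 0.17).

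The COX5B call rested on every D425 library but shCRX replicate 1. Without 1 of parental replicates 1 and 2, the vector library or shCRX replicates 2 and 3 its edgeR adjusted p was between 0.0502 and 0.0951, with a log2 difference of 0.72 to 0.85, and with all libraries thinned to equal depth the difference was 0.52 (adjusted p = 0.438). Fibroblast markers summed to 25.9 to 37.3 CPM in D425 controls and 51.9 to 85.3 in shCRX, most of it PDGFRB. COL1A1 stood at 4.37, 5.65 and 2.09 CPM in D425 controls and at 9.41, 7.86 and 8.95 in shCRX. DCN went the other way, at 2.07, 2.10 and 3.00 CPM against 0, 1.45 and 1.28. COL1A2 stayed at or below 3.08 CPM, COL3A1 at or below 2.80 and LUM at or below 3.33. The part of these markers in the result was not tested. Other markers moved with the D425 arms too. The neuronal SYP was lower in shCRX, with a log2 difference of -1.69 (edgeR adjusted p = 0.000934), and so were the Group 3 markers GABRA5 (-1.85) and IMPG2 (-0.92). Their part was not tested either. Depth and base composition also moved with the D425 arms. Reads counted in genes were 3.64 to 9.53 M in shCRX and 11.36 to 18.06 M in controls. Across the 91 members the log2 difference rose with GC content (Spearman's rho 0.299), as it did over 15581 genes (0.282). With offsets for GC content and length COX5B still passed.

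In HD-MB03, 5 members passed, 4 lower and 1 higher in the libraries labelled shCRX. That is 5.49% of the tested members, against 1.51% of all genes, 1.24% lower and 0.262% higher. The 4 lower were CYC1, the cytochrome c1 of complex III, NDUFS7, the complex IV subunit COX5A, and ATP5PD, a subunit of the stalk that holds the head of ATP synthase in place. The higher was ATP5PO, the protein that joins this stalk to the head.

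CYC1 stood at 505 and 335 CPM in HD-MB03 controls and at 144 and 165 in the libraries labelled shCRX, a log2 difference of -1.44 ± 0.26 (edgeR adjusted p = 0.0185). ATP5PD stood at 262 and 195 CPM against 89.1 and 81.9, a log2 difference of -1.42 ± 0.24 (edgeR adjusted p = 0.0167). COX5A stood at 248 and 236 CPM against 114 and 116, a log2 difference of -1.07 ± 0.22 (edgeR adjusted p = 0.0321). For these genes both shCRX libraries lay below both controls and within or below the range of the D425 libraries. NDUFS7 stood at 68.7 and 39.7 CPM in controls and at 18.2 and 20.8 in shCRX, a log2 difference of -1.47 ± 0.31 (edgeR adjusted p = 0.0386). ATP5PO stood at 14.6 and 22.5 CPM in controls and at 50.5 and 41.3 in shCRX, a log2 difference of 1.31 ± 0.28 (edgeR adjusted p = 0.0395). It was low only in the 2 HD-MB03 controls, since D425 libraries held 46.2 to 63.7 CPM. By the reference annotation, 49.1% of the exonic bases of NDUFS7, 25.4% of those of ATP5PO and 19.1% of those of ATP5PD overlap another gene, so their counts are uncertain.

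**Figure D1:**
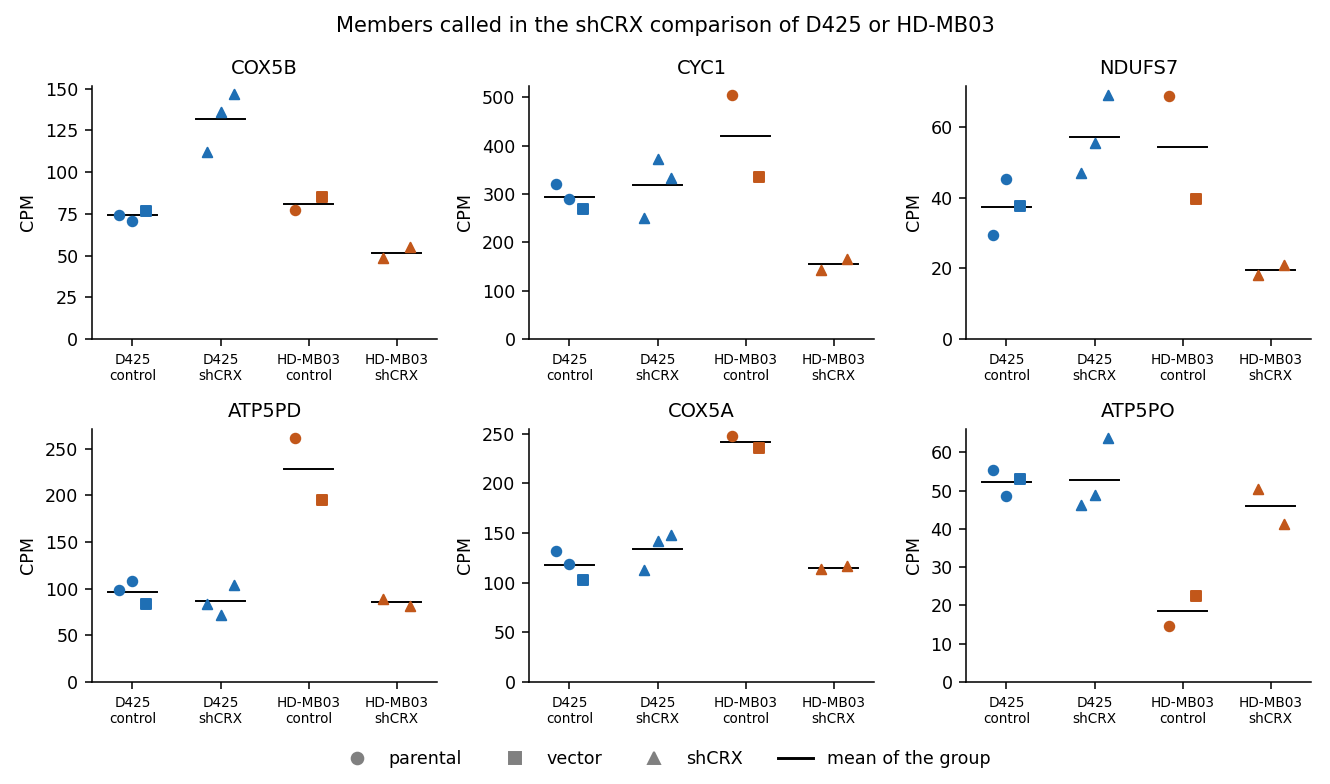
CPM (vertical axis, linear from 0) of the 6 members called in the shCRX comparison of D425 or HD-MB03, with 1 point per library (circle parental, square vector, triangle shCRX) and a line at the mean of each group. COX5B is higher in all 3 D425 shCRX libraries, and the HD-MB03 controls stand apart from the other 8 libraries for ATP5PD, COX5A and ATP5PO.

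Members that missed the threshold in HD-MB03 went in both directions. NDUFB2 (-1.64 on the log2 scale), ATP5MF (-1.44) and NDUFA12 (-0.94) were lower and COX7B (1.53), ATP5F1E (1.04) and COX6A1 (0.82) higher without overlap of the groups, at edgeR adjusted p of 0.0751, 0.0621, 0.0934, 0.0669, 0.0672 and 0.180. NDUFA7 had a log2 difference of 1.97 with a standard error of 1.14 on few counts. Over the members, 39 of 91 (42.9%) were lower without overlap where the background was 21.8% of all genes, and 23 (25.3%) were higher where the background was 30.5%. With 2 libraries against 2 such separation is common. The median over members was -0.13, against 0.10 over all genes. ATP5F1A had a log2 difference of 0.07 with a 95% interval from -0.44 to 0.59, and SDHB 0.14 (from -0.36 to 0.64).

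Depth, alignment and base composition moved with the HD-MB03 arms, as depth and base composition did with those of D425. Across the 91 members the log2 difference fell with GC content (Spearman's rho -0.348), as it did across all genes with known GC content (-0.362 over 15581 genes). Genes share their libraries and are not independent, so these values carry no p. With offsets for GC content and length, CYC1 (-1.12), ATP5PD (-1.54), COX5A (-0.99) and ATP5PO (1.30) still passed, and NDUFS7 did not (-0.78, edgeR adjusted p = 0.171). The count of 5 fell to 0 without HD-MB03 parental or without either library labelled shCRX, was 5 without the HD-MB03 vector library (COX5A lost and COX7B gained), and was 3 without the D425 vector library and 8 and 9 without D425 shCRX replicates 2 and 1.

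The difference between the shCRX effects, D425 minus HD-MB03, was called for 9 of 91 members, all of them positive. That is 9.89% of the members, where 4.16% of all genes were called and 2.67% in this direction. NDUFB2 and NDUFB11 are accessory subunits of the membrane arm of complex I, and NDUFS7 is a core subunit. CYC1 belongs to complex III, COX5A and COX5B to complex IV, and ATP5F1D, ATP5MF and ATP5PD to complex V.

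The log2 differences of effects were 2.37 ± 0.53 for NDUFB2, 2.08 ± 0.40 for NDUFS7, 1.74 ± 0.44 for ATP5MF, 1.65 ± 0.40 for ATP5F1D, 1.56 ± 0.33 for CYC1, 1.47 ± 0.27 for COX5B, 1.33 ± 0.34 for NDUFB11, 1.26 ± 0.28 for COX5A and 1.25 ± 0.31 for ATP5PD (SE, edgeR adjusted p between 0.0110 and 0.0481). The share of each line varied: the log2 difference in D425 and in HD-MB03 was 0.83 and -0.65 for COX5B and 0.12 and -1.44 for CYC1. NDUFB2 stood at 180 and 92.2 CPM in HD-MB03 controls against 40.2 and 47.1 in shCRX. In D425 it stood at 23.3, 28.2 and 16.7 CPM in controls and at 22.3, 54.4 and 37.3 in shCRX. ATP5F1D, a central stalk subunit, stood at 96.8 and 74.0 CPM against 39.3 and 48.8 in HD-MB03, and at 72.6, 68.7 and 63.4 against 67.8, 147 and 117 in D425. By the reference annotation, 35.9% of the exonic bases of NDUFB2 and 44.85% of those of NDUFB11 overlap another gene, so their counts are uncertain. This contrast is also that of the low-numbered against the high-numbered set, and the effects of arm, depth and set cannot be told apart in it. Across the members it rose with GC content (Spearman's rho 0.453, 0.408 over all genes), and with offsets for GC content and length ATP5F1D turned to -0.17 (edgeR adjusted p = 0.862) and 4 members were called. Leaving out any HD-MB03 library left 1 in a group. The calls did not all hold in those fits, and fewer of all genes passed too. The count was 2 without D425 shCRX replicate 3 (2.35% of all genes) and 3 without the D425 vector library (2.93%). It was 5 without D425 parental replicate 1 (2.68%) and 6 without parental replicate 2 (3.82%).

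**Figure D2:**
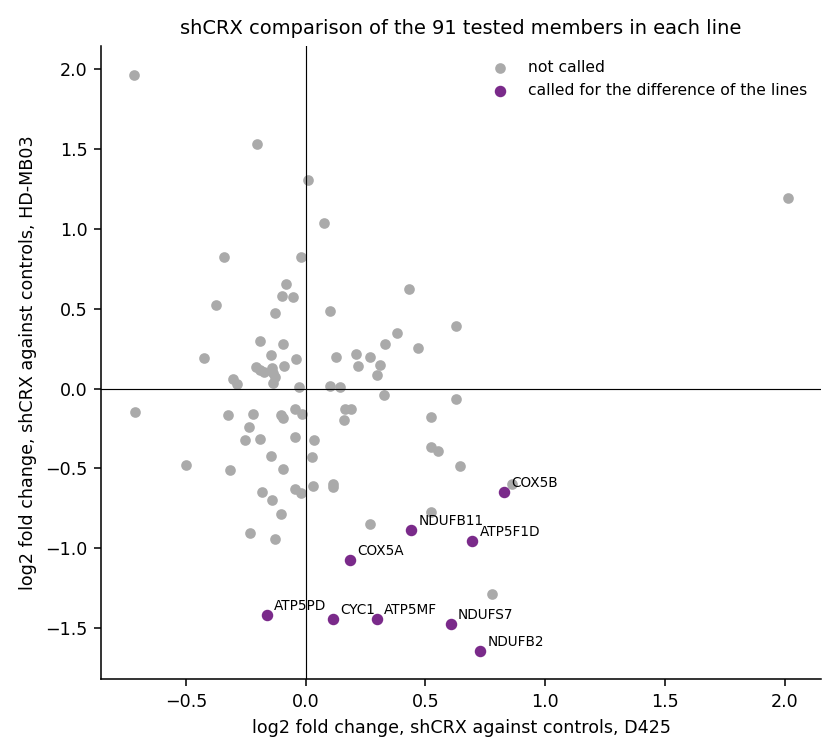
Log2 fold change of libraries labelled shCRX against controls in D425 (horizontal) and in HD-MB03 (vertical), with 1 point per tested member and the 9 members called for the difference of the lines in purple. All 9 lie below 0 in HD-MB03, between -0.65 and -1.64, and 8 of them lie above 0 in D425.

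By the labelled arms, 40 of 91 members (44.0%) had the same sign in D425 and HD-MB03, and 43.8% of all genes did. Spearman's rho between the log2 differences was -0.183 over members and -0.143 over 16006 genes, a description across genes that share the same 10 libraries. With the CRX levels of HD-MB03 running opposite to its labels, these values compare labelled arms and say nothing of direction relative to CRX itself. In the mean of the lines, where an equal shift of the library-number sets cancels, edgeR called 0 of 91 members (background 0.225% of all genes). An edgeR unadjusted p under 0.05 was found for 17 of 91 members and for 2118 of 16006 genes. DESeq2 called 5 members (background 2.38% of all genes) and limma-voom 0 (background 0.15%). The lowest adjusted p was that of ATP5PD, 0.0632 at a log2 difference of -0.79 with a 95% interval from -1.13 to -0.45. Intervals lay wholly within 1 log2 unit of 0 for 78 members, including ATP5F1A (from -0.36 to 0.31), NDUFS1 (from -0.19 to 0.37) and COX4I1 (from -0.34 to 0.27).

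More members passed between the lines than between the arms. Averaged over the arms, 35 of 91 members passed between D425 and HD-MB03, 21 higher in D425 and 14 lower, which is 38.5% of the members where 46.0% of all genes were called, 24.4% higher and 21.6% lower. No overlap of the lines was seen for 8 members that were higher (8.79%, background 15.3%) and 3 that were lower (3.30%, background 13.8%). The median size of the difference was 0.33 on the log2 scale, against 0.61 over all genes, and the median difference was 0.12, against 0.05. Scaling by library totals moved the median of all genes by 0.11 in this contrast and by 0.13 in D425 and gave 28 higher and 9 lower. No called member changed direction under either other scaling.

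Complex II held the member with the largest excess in D425. SDHD, a membrane anchor of succinate dehydrogenase, stood at 57.6, 50.4 and 59.0 CPM in D425 controls and 37.7, 38.0 and 53.7 in D425 shCRX, but at 7.81, 22.5, 24.1 and 19.3 in the HD-MB03 libraries. Every D425 library lay above every HD-MB03 library, a log2 difference of 1.43 ± 0.24 (edgeR adjusted p = 0.000402). SDHB, the iron-sulfur subunit, ranged over 77.2 to 118 CPM in D425 and 58.4 to 68.2 in HD-MB03, a log2 difference of 0.69. SDHA and SDHC had differences of -0.30 and -0.23 and did not pass.

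In complex V, ATP5MG, the small membrane subunit g, stood at 120, 94.5 and 98.2 CPM in D425 controls, 81.6, 104 and 110 in D425 shCRX, and 33.8, 29.5, 51.5 and 48.2 in HD-MB03. The groups did not overlap, a log2 difference of 1.35 ± 0.15 (edgeR adjusted p = 1.8e-05). ATP5PO was also higher in D425, by 0.85, with its low values in the HD-MB03 controls alone. ATP5MF, subunit f, was lower by 1.03 on the log2 scale, at 27.9 to 60.2 CPM in D425 against 162, 95.4, 44.2 and 50.4 in HD-MB03, with overlap. ATP5PD (-0.61) and ATP5MK (-0.49) were lower too. ATP5F1A and ATP5F1B, of the catalytic head, had log2 differences of 0.32 and 0.12 with intervals from -0.01 to 0.66 and from -0.17 to 0.42.

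Of the complex I accessory subunits, 8 of 30 were higher in D425 (26.7%, background 24.4%) and 3 lower (10.0%, background 21.6%). NDUFB9 (0.85), NDUFC2 (0.85), NDUFA1 (0.83) and NDUFS4 (0.79) were higher in every D425 library than in every HD-MB03 library. Exonic overlap with another gene was 44.5% for NDUFA1, 21.0% for NDUFB9, 18.1% for NDUFC2 and 0% for NDUFS4. NDUFB9, an accessory subunit of the membrane arm, ranged over 123 to 164 CPM in D425 and 60.5 to 104 in HD-MB03. NDUFA11 (0.76), NDUFC1 (0.64), NDUFB1 (0.54) and NDUFA12 (0.51) overlapped between the lines. NDUFA10, on the matrix side, was lower in every D425 library, at 92.8 to 117 CPM against 148 to 181, a log2 difference of -0.63 ± 0.13 (edgeR adjusted p = 0.00134). NDUFB2 (-1.40) and NDUFB10 (-0.46) were lower with overlap.

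Of the complex I core subunits, NDUFS8 (0.43) and NDUFS1 (0.34), both iron-sulfur proteins, were higher in D425. NDUFV1, the flavoprotein that takes electrons from NADH, had a difference of 0.00 with an interval from -0.31 to 0.31. Among the assembly factors, NDUFAF3 was higher (0.91) and NDUFAF6 (-0.61) and NDUFAF4 (-0.55) were lower.

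In complex III, the Rieske iron-sulfur protein UQCRFS1 was higher in D425 by 0.80, at 74.6 to 108 CPM against 40.6 to 56.4, without overlap. UQCRC1, a core protein, was higher by 0.45, while UQCRH (-0.46) and its copy UQCRHL (-0.50) were lower. CYC1, called in HD-MB03, had a line difference of 0.26 with an interval from -0.09 to 0.62.

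In complex IV, COX7B was higher by 1.14 on the log2 scale. It stood at 217, 187 and 192 CPM in D425 controls, 117, 217 and 185 in D425 shCRX, 28.1 and 70.8 in controls of HD-MB03 and 144 and 142 in its shCRX libraries, with overlap of the lines. COX5B (0.61), COX6A1 (0.56) and COX6B1 (0.54) were higher as well. NDUFA4, a subunit once assigned to complex I, was lower by 0.84, at 107 to 228 CPM in D425 and 202 to 327 in HD-MB03. COX5A was lower by 0.41. COX6B2, the testis isoform of COX6B1, was lower by 2.45, but no D425 library held more than 3 of its counts, the HD-MB03 controls held 2 and 1, and only the HD-MB03 shCRX libraries, with 24 and 27, held more.

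**Figure D3:**
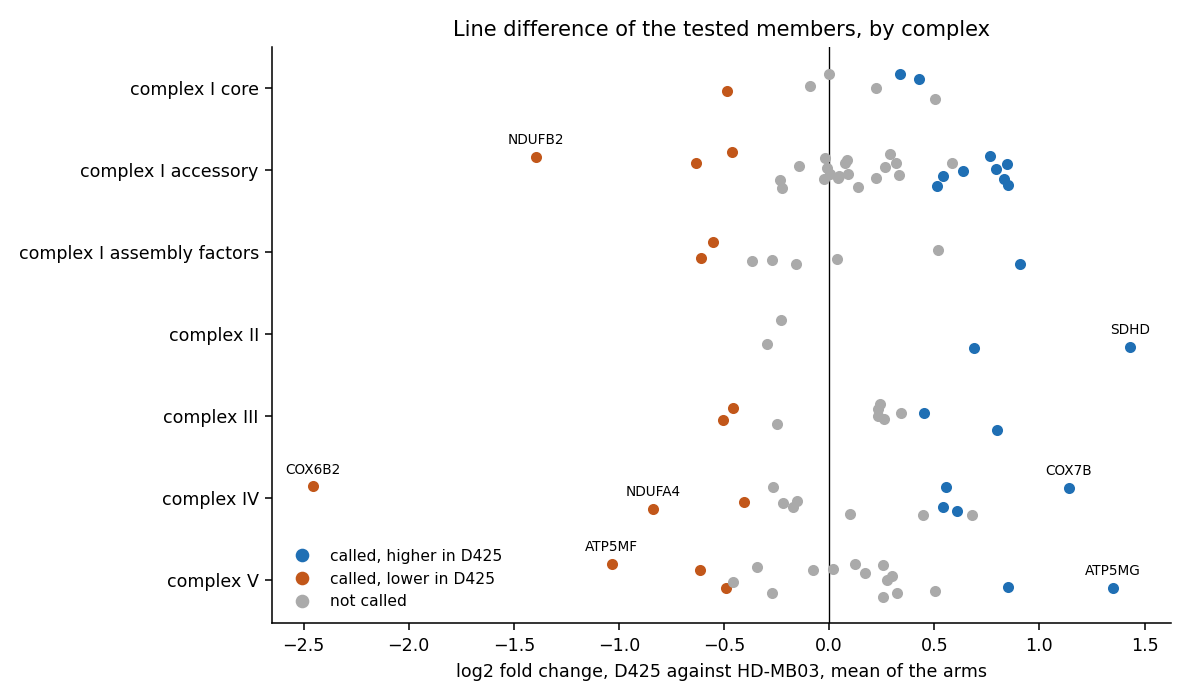
Log2 fold change of D425 against HD-MB03 in the mean of the arms (horizontal), with 1 point per tested member, grouped by complex. Called members lie on both sides of 0 in every complex but complex II, where SDHD at 1.43 and SDHB at 0.69 are both higher in D425.

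**Figure D4:**
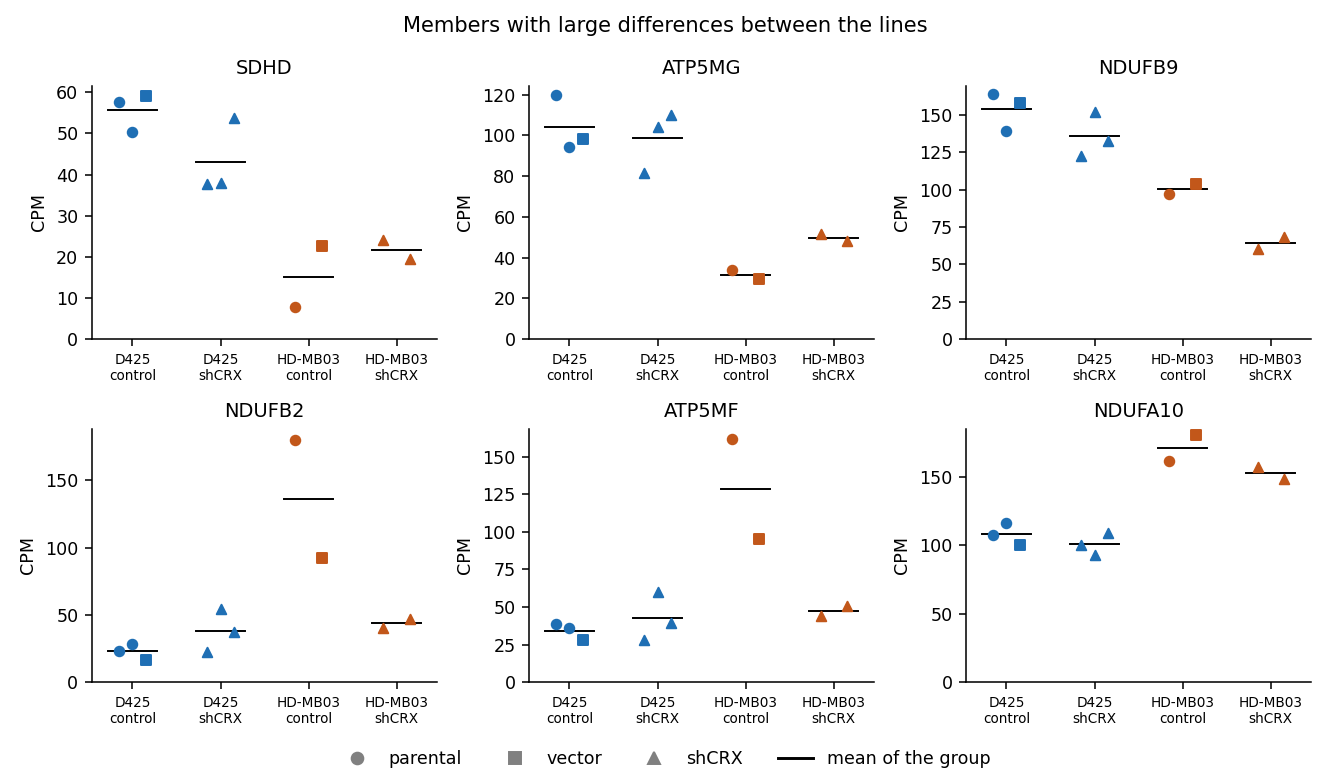
CPM (vertical axis, linear from 0) of 6 members with differences between the lines, with 1 point per library and a line at each group's mean. SDHD, ATP5MG, NDUFB9 and NDUFA10 separate all D425 from all HD-MB03 libraries, while NDUFB2 and ATP5MF are high mainly in the HD-MB03 controls.

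Compared within each library-number set, which share no libraries, 23 members were called in the low-numbered set (25.3%, background 30.7%) and 15 in the high-numbered set (16.5%, background 31.2%). Called in the same direction in both, of 31 called in either, were 7 members: ATP5MG, NDUFA1, NDUFAF3, NDUFS4, SDHB and SDHD higher and NDUFA10 lower in D425. The difference for SDHD was 1.51 in the low-numbered set and 1.36 in the high-numbered set, that for ATP5MG 1.64 and 1.06, and that for NDUFA10 -0.77 and -0.50. For other members the sets gave unlike values, and the test of that gap is the test of the shCRX effect in the mean of the lines, where edgeR called 0 of 91. ATP5PO differed by 1.51 in the low-numbered and 0.19 in the high-numbered set, COX7B by 1.80 and 0.48, and ATP5PD by -1.40 and 0.18. NDUFA12 differed by -0.02 and 1.04, COX6B2 by -0.85 and -4.06, and COX5A by -0.85 and 0.04. The same sign was found in both sets for 60 of 91 members (65.9%) and for 75.1% of all genes, and Spearman's rho was 0.481 over members and 0.701 over all genes.

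**Figure D5:**
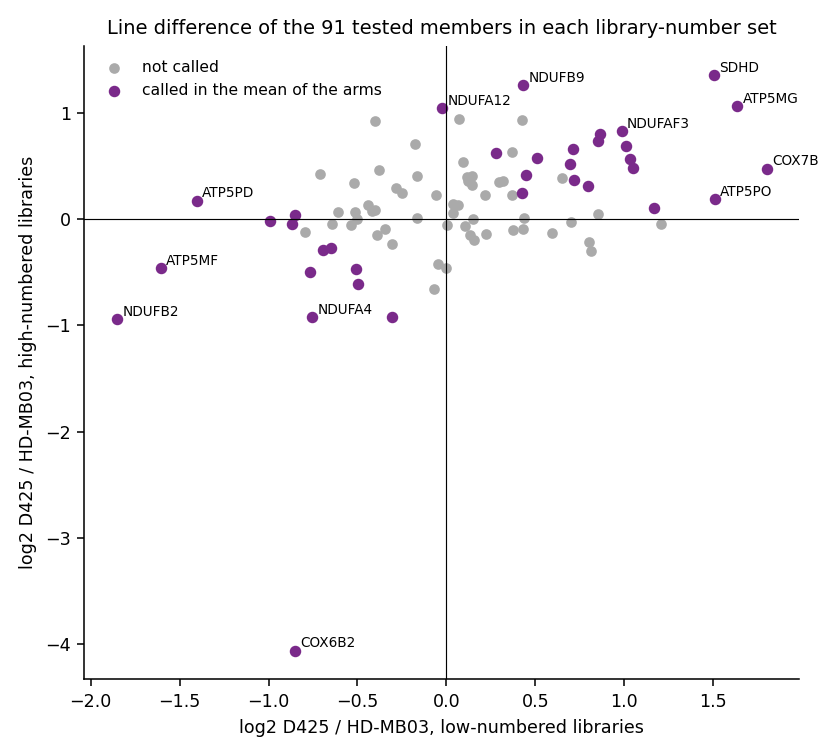
Log2 fold change of D425 against HD-MB03 among the low-numbered (horizontal) and the high-numbered libraries (vertical), with 1 point per tested member and the 35 members called in the mean of the arms in purple. SDHD and ATP5MG lie at 1 or above in both sets, and ATP5PD and NDUFA12 change sign between them.

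By chromosome, of the 4 members on chromosome 7, NDUFB2, ATP5MF and NDUFA4 were called lower in D425, with a median over the 4 of -0.94. The other 764 tested genes of that chromosome had a median of -0.02, and 21.6% of them were called lower. NDUFB2 and ATP5MF did not pass within the high-numbered set, and NDUFA4 did not within the low-numbered set. The 7 members on chromosome 11, SDHD, ATP5MG, NDUFC2 and NDUFS8 among them, had a median of 0.43, and the other 824 genes a median of 0.35. The 3 on the X chromosome, NDUFA1, COX7B and NDUFB11, had a median of 0.83, and the other 553 genes 0.70. On chromosome 17 the median was -0.27 over 3 members and 0.265 over the other 913 genes. On chromosome 19 it was 0.50 over 11 members and 0.11 over the other 1070. Values of the remaining chromosomes are not shown.

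Other genes of the pathway were read from lists chosen by function. No regulator passed in any shCRX comparison: of 14 tested, the median log2 difference was -0.20 in D425 and 0.13 in HD-MB03, and NRF1 itself stood at 19.8 to 31.6 CPM in all libraries. An edgeR unadjusted p under 0.05 was found for 1 regulator in D425 and 3 in HD-MB03, while DESeq2 called 0 and 1 and limma-voom 0 and 0. Between the lines, PPARGC1A, a coactivator of mitochondrial biogenesis, was higher in D425, with a log2 difference of 2.11 (edgeR adjusted p = 0.00112), at 3.93 to 18.2 CPM against 2.51 to 3.22. TEFM, a mitochondrial transcription elongation factor, was higher by 0.94, and PPRC1 (-1.08), TFB2M (-0.73) and GABPB2 (-0.59) were lower. These 5 made up 35.7% of the 14 regulators, where 46.0% of all genes were called. Of 17 genes of the tricarboxylic acid cycle, none passed in either line's shCRX comparison, 8 were higher in D425, SUCLA2 (0.81) and SUCLG1 (0.68) most, and 4 lower. The calls between the lines made up 70.6% of the 17, where 46.0% of all genes were called. In each line's shCRX comparison 4 of the 17 had an edgeR unadjusted p under 0.05, and DESeq2 called 2 in D425 and 0 in HD-MB03, limma-voom 0 in both. IDH2, mitochondrial isocitrate dehydrogenase, was the lowest in D425 against HD-MB03, at -2.49. Its shCRX effects differed between the lines by 1.77 (edgeR adjusted p = 0.0285).

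Mitochondrial ribosomal proteins, which make the mitochondrially encoded subunits, had 74 tested genes. MRPL10 was lower in D425 shCRX (-0.76), and MRPL12 (-2.92), MRPL41 (-1.95) and MRPL9 (-1.06) were lower in HD-MB03 libraries labelled shCRX. The difference of effects was called for 5, all positive, led by MRPL12 at 4.14 and MRPL41 at 3.11, or 6.76% where 4.16% of all genes were called. For D425, HD-MB03 and the difference, edgeR called 1, 3 and 5 of these genes, DESeq2 4, 10 and 10, and limma-voom 1, 3 and 3. Over all genes the shares were 2.97%, 1.51% and 4.16% in edgeR, 6.39%, 5.29% and 8.63% in DESeq2, and 3.79%, 1.09% and 3.59% in limma-voom. Between the lines 13 were higher in D425 and 12 lower, with MRPL48 (1.76) and MRPL9 (-1.50) at the ends, or 33.8% where 46.0% of all genes were called.

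Assembly factors beyond the NDUFAF genes were counted by complex. For complex I, ECSIT was lower in HD-MB03 shCRX (-0.91), and FOXRED1 (1.44), TIMMDC1 (1.03) and TMEM126B (0.99) were higher in D425 than in HD-MB03, of 8 tested. For complex II none of 4 passed in any comparison, and for complex III only the line comparison had calls among 6, TTC19 higher (1.37) and UQCC3 lower (-0.70). For complex IV, COA6 was the 1 of 19 called in HD-MB03 (-1.13) and for the difference of effects (1.32), and 5 were higher and 4 lower between the lines, COX14 (1.03) and COA6 (-1.22) at the ends. For complex V, ATPAF1 was higher in D425 shCRX (0.98, edgeR adjusted p = 0.0141), and between the lines DMAC2L (1.09) and ATPAF2 (0.80) were higher and ATPAF1 lower (-0.76), of 4. Of 10 tested carriers, none passed in the shCRX comparisons, SLC25A5 (0.70) and ETFDH (0.58) were higher in D425 than in HD-MB03, and ETFB (-0.82), VDAC1 (-0.68) and SLC25A4 (-0.43) were lower. By unadjusted p under 0.05 in edgeR, the shCRX comparisons of D425 and HD-MB03 had 0 and 0 complex II factors, 0 and 3 complex III factors, and 1 and 2 carriers. DESeq2 called 1 complex III factor in HD-MB03 and 1 carrier in D425 among these, and limma-voom called 0.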

How the data were processed

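Values were whole-number read counts per gene deposited by the authors, 1 file per library, without normalisation. The tools named in the submitters' processing notes are HTSeq, HISAT2, bcl2fastq and DESeq2, with build GRCh37 (hg19), and their versions and the strand setting are not given in the sources used here. Summary entries were left out: reads ambiguous between genes made up 4.04% to 5.73% of a library and reads aligned to several places 3.54% to 5.02%, which affects members with pseudogene copies. Of 57820 identifiers, 51996 matched a symbol. Gene type, exonic overlap, GC content and length came from GENCODE on another build, so no positions of measured genes are given, and promoters came from RefSeq.

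Counts were fitted in edgeR 4.0.16 (TMM scaling, filterByExpr, robust quasi-likelihood, 4 groups of line and arm, 6 residual degrees of freedom), with two-sided tests and Benjamini-Hochberg adjustment over 16006 genes, called at 0.05. The biological coefficient of variation was 26%. Contrasts were shCRX against controls in each line, their difference and mean, and D425 against HD-MB03. CPM used effective library sizes, and 3 counts corresponded to 0.166 CPM in the deepest library and 1.53 in the shallowest, for counting error only. Within groups, counts differed between replicates beyond sampling (chi-square statistics of 9.23 to 52.8 per degree of freedom). The fit was tested on simulated data. Alternatives were DESeq2 1.42.0, limma-voom (limma 3.58.1), other scalings, no filter, left-out libraries, other controls, equal depth, GC content and length offsets, a replicate block, and each line fitted alone, the last chosen after seeing the data.

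The members and lists were chosen with earlier results of these data known. Named were called members (up to 10 per direction and comparison), catalytic and core subunits, the highest and lowest of each complex, tissue isoforms, the 5 largest in each direction without overlap, members with 0 counts, and up to 4 called genes per list and direction. Of these the text gives a selection. Some results that the totals count are not reported here. NDUFA11, NDUFA12, NDUFB1, NDUFB10 and ATP5MJ fall outside this rule and were added after their values were seen.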

Additional observations from a re-analysis of the deposited data

Results flagged for a closer look

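For 9 members the shCRX effect in D425 differed from that in HD-MB03 by edgeR's test of the difference itself (Benjamini-Hochberg adjusted p between 0.0110 and 0.0481 over 16006 genes). The log2 difference of effects was 2.37 for NDUFB2, 2.08 for NDUFS7, 1.74 for ATP5MF, 1.65 for ATP5F1D, 1.56 for CYC1, 1.47 for COX5B, 1.33 for NDUFB11, 1.26 for COX5A and 1.25 for ATP5PD. Of these, COX5B passed in the D425 comparison, and CYC1, NDUFS7, COX5A and ATP5PD passed in the HD-MB03 comparison. All 9 had a negative log2 difference in HD-MB03, where the parental and vector libraries had the fewest counted reads and the most reads that did not align. The contrast falls on the library-number sets, so the line, set and depth cannot be told apart in it.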

How the results depend on the processing

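The number of called members was 1 in D425, 5 in HD-MB03, 9 for the difference of the effects, 0 in the mean of the lines and 35 between the lines. Of all genes, 2.97%, 1.51%, 4.16%, 0.225% and 46.0% were called, in the same order. Without the filter on low counts the shares were 3.85%, 2.51%, 5.03%, 1.29% and 24.6%. The members called were then 2, 9, 15, 3 and 31. Vector or parental libraries alone as controls left 1 control library in HD-MB03, so counts of those fits are not given. Fewer of all genes passed in each comparison there, and fewer members in all but the mean of the lines. At equal depth the members called were 0, 1, 1, 0 and 21. DESeq2 gave 1, 14, 15, 5 and 35, limma-voom 1, 3, 7, 0 and 33, offsets for GC content and length 1, 4, 4, 1 and 42, and DESeq2's size factors in edgeR 1, 6, 9, 1 and 34. In the same order, DESeq2 called 6.39%, 5.29%, 8.63%, 2.38% and 40.1% of all genes, and limma-voom 3.79%, 1.09%, 3.59%, 0.15% and 44.5%. The offsets gave 2.56%, 0.987%, 1.88%, 0.319% and 47.9%, and DESeq2's size factors 2.95%, 1.7%, 4.24%, 0.337% and 45.8%. At equal depth the shares were 0.37%, 0.362%, 0.905%, 0.0472% and 29.4%. Between the lines, 23 members were called within the low-numbered set and 15 within the high-numbered set. HD-MB03 fitted alone, chosen after seeing the data, gave 9, and the share over all genes in that fit is not reported here. Leaving out 1 library gave 0 to 2 in D425, 0 to 9 in HD-MB03, 0 to 13 for the difference, 0 in the mean of the lines and 19 to 40 between the lines, with 19 reached without HD-MB03 shCRX replicate 1. ATP5MG, NDUFA10, NDUFS4 and SDHD passed between the lines under all 23 alternatives run.

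Directions turned for ATP5F1D in the difference (-0.17 with offsets for GC content and length) and, between the lines, for ATP5PD (0.18 within the high-numbered set), COX5A (0.037, same set), NDUFA12 (-0.022 within the low-numbered set) and COX5B (-0.13 in controls alone); the cause was not tested. D425 parental and shCRX libraries share only replicate numbers: deviations of same-numbered libraries had a correlation of 0.0108. A fit with these numbers as a replicate block called 1 member in D425, 7 in HD-MB03, 11 for the difference, 0 in the mean of the lines and 36 between the lines. In the same order it called 3.66%, 1.75%, 5.17%, 0.356% and 47.1% of all genes. Median standard errors on the log2 scale were 0.273 in HD-MB03 (2 libraries against 2, controls at 1.96 and 2.08 M counts), 0.216 in D425 (3 against 3) and 0.346 for the difference.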
